A study of Mus musculus with 6 samples.

Results

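Expression of the cytosolic ribosomal protein genes was examined in RAW264.7 cells, in a comparison of libraries labelled E4BP4 knockout with control libraries. Members were taken by gene symbol from the deposited expression table: Rpl or Rps followed by a number and an optional a, x, l or l-digit ending, together with Rpsa, Rplp0, Rplp1 and Rplp2, and without the Rps6k kinases and the pseudogene names. The rule found 84 of the 25124 rows and used no measured value. They were 30 proteins of the small subunit, 43 of the large subunit, 3 stalk proteins, and 8 paralogs whose symbol ends in l or l and a digit. RAW264.7 is a mouse macrophage-like tumour line, and E4BP4 is the bZIP transcription factor encoded by Nfil3. Polyadenylated RNA was sequenced from untreated cells in 3 libraries labelled knockout and 3 libraries labelled control, and the unmodified line is all that the labels give for the control. The sources used here do not say how the knockout was made, whether it is a clone or a pool, or whether replicates were separate cultures. The p-values thus measure only the spread among these 6 libraries, and that spread may be technical.

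Each ribosome is built from a small subunit, which decodes the messenger RNA, and a large subunit, which joins amino acids. The proteins of both are needed in equal amounts, one copy of almost every kind per ribosome, and their messenger RNAs are among the most abundant of any dividing cell. Most of these RNAs begin with a run of pyrimidines, the TOP run (terminal oligopyrimidine), through which the TOR kinase and the RNA-binding protein Larp1 control their translation.

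Nfil3 itself was higher, not lower, in the libraries labelled knockout, at 103 ± 2.65 against 30.1 ± 0.803 TPM (SD, n = 3 each; adjusted p = 4.962e-09, limma), so the groups are named by their labels throughout. TPM is a read number per transcript length, scaled by library. The headers give 18.4 to 23.3 M tags per library (M, mega). All 12 macrophage markers examined were at 1 TPM or more in every library, with summed levels of 5832 to 6061 TPM under the knockout label and 4944 to 5487 TPM in the controls. Single markers went both ways, with 3 higher, 7 lower and a median log2 fold change of -0.25, and Lyz2 (2218 against 1069 TPM) weighed most on the sum. The fibroblast, epithelial and lymphocyte lists summed to at most 1.08 TPM in any library. Nuclear and ribosomal RNA species used as signs of RNA quality summed to 795 to 890 TPM against 934 to 998 TPM, and their part in the results was not tested.

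The start sites of 63 members were found among the RefSeq promoters of GRCm38.p6, and 34 of them (54.0%) held a TOP run, taken here as a C followed by at least 5 pyrimidines that begins within 10 bases of the annotated start on the gene's strand. The same run was found at 19.7% of all 18354 promoters. A run by this definition may lie wholly before the annotated start. In Rps27l, for example, it begins 10 bases before the start and is 7 bases long. Windows from 20 bases before the start to 20 bases from it are shown for the genes that the results below turn on, 5′ to 3′ on the gene's strand, with the TOP run in capitals. Of the genes that were higher under the knockout label, Rpl18 (chr7:45718051-45718090, plus), Rps15a (chr7:118116128-118116167, minus), Rpl31 (chr1:39367831-39367870, plus) and Rps10 (chr17:27635225-27635264, minus) had a run, while Rps3 (chr7:99483690-99483729, minus) and Rps19 (chr7:24884572-24884611, plus) had none by this definition. Of the genes that were lower, Rps21 (chr2:180257359-180257398, plus), Rps26 (chr10:128626487-128626526, minus) and Rpl22l1 (chr3:28805488-28805527, plus) had a run.
Rpl18: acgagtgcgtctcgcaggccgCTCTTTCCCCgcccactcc
Rps15a: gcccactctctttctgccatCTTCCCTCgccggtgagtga
Rpl31: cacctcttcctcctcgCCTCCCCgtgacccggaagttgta
Rps10: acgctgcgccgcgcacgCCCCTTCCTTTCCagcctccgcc
Rps3: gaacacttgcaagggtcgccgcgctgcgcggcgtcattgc
Rps19: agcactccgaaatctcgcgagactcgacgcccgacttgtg
Rps21: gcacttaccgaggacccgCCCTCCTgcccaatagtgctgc
Rps26: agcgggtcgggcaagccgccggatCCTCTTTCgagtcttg
Rpl22l1: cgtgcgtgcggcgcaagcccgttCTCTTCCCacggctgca

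Ribosomal protein RNAs were among the most abundant in these cells. Leaving out the paralogs, the 76 members had control means of 96.7 to 2137 TPM with a median of 745 TPM, where all 11257 tested genes had a median level of 16.5 TPM over the 6 libraries. By mean TPM, members made up 20 of the 50, 44 of the 100 and 63 of the 200 most abundant genes. At the top stood Rplp1, an acidic protein of the stalk that recruits elongation factors, at 2137 ± 143 TPM in the controls, followed by Rpl8, next to the peptidyl transferase centre, at 2105 ± 70.3 TPM and Rpl32, a large-subunit protein, at 1939 ± 81.5 TPM (SD, n = 3). The control libraries of Rplp1 overlapped with those of Rpl8 and of Rpl32, while the lowest of Rpl8 (2028 TPM) lay above the highest of Rpl32 (2008 TPM). The RNA levels differed widely between genes: 20 members stood under 500 TPM, 33 between 500 and 1000 TPM, and 23 over 1000 TPM. The deposited transcript length enters the TPM, and the low level of Rps15a (123 TPM in the controls) goes with a listed transcript of 5127 bases, the longest of the 76, against a median of 716.5 bases.

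In sum, ribosomal protein RNAs took 11.93%, 12.17% and 11.78% of the listed TPM under the knockout label, and 11.66%, 10.7% and 11.15% in the control libraries. The lowest library labelled knockout lay only just above the highest control. The means were 11.96% ± 0.194 and 11.17% ± 0.478 (SD, n = 3), and of the difference of 0.79 percentage points the 14 members on chromosome 7 gave 0.524 and the 70 on other chromosomes 0.265. For the chromosome 7 members the shares of the groups did not overlap (2.77% to 2.91% against 2.23% to 2.40%), while for the other members they did (9.02% to 9.26% against 8.48% to 9.25%). Counted as a share of reads recovered from the TPM values instead, where long transcripts weigh more, the difference was 0.301 percentage points and the groups overlapped, at 4.17% to 4.39% against 3.75% to 4.22%. In bulk RNA, a difference in the cells' number or state and a difference in RNA per cell cannot be told apart.

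**Figure D1:**
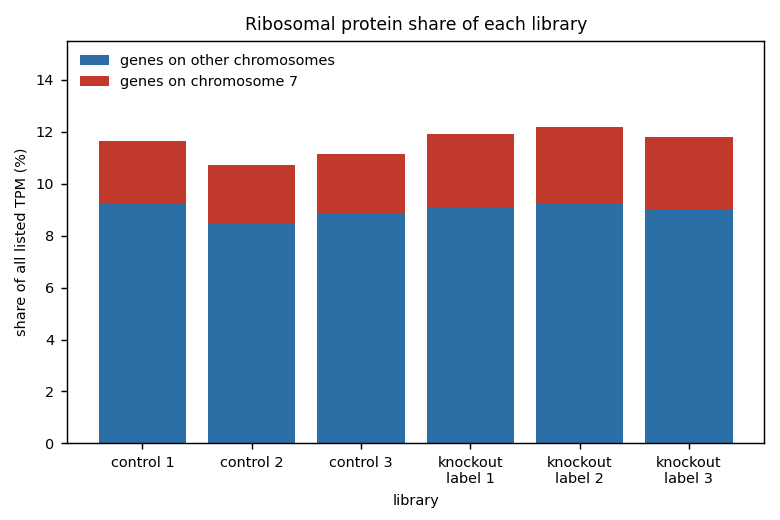
Share of all listed TPM (percent) taken by ribosomal protein RNAs in each of the 6 libraries, as bars from 0 with the members on other chromosomes below (blue) and those on chromosome 7 above (red). The red parts are taller under the knockout label, at 2.77% to 2.91% against 2.23% to 2.40% in the controls, while the blue parts overlap.

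Of the 84 members, 81 reached the filter of 1 TPM in at least 3 libraries and were tested. In limma on log2(TPM + 1), fitted over all 11257 genes with Benjamini-Hochberg adjustment, 29 members were higher under the knockout label at adjusted p under 0.05, 4 were lower and 48 did not pass. Over all tested genes 50.1% passed, 26.7% higher and 23.4% lower, so the share of members that was higher (35.8%) stood above the background and the share that was lower (4.9%) below it. The changes were small: the median log2 fold change of the members was 0.08, against 0.02 over all tested genes, 63 members lay above 0 and 18 below, and 63 of the 67 tested members off chromosome 7 had a ratio of mean TPM between 0.8 and 1.2. Groups did not overlap for 34 members that were higher and 5 that were lower, where 31.3% and 27.2% of all tested genes did not overlap in these directions. With the median fold change of each chromosome removed, 17 members were higher and 6 lower, against 23% and 24.8% of all tested genes. Without control library 1, which had the highest member levels of the controls (median deviation 0.02, against -0.10 and -0.04 in control libraries 2 and 3 on the log2 scale), 40 members were higher. The lower count was 7 without control library 2, and 2 without control library 3 or without any 1 of the libraries labelled knockout. The count over all genes moved too, from 3002 higher with all libraries to 2478 without knockout-labelled library 1. Here and below, member counts with a library left out are given without the background share of the same fit.

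**Figure D2:**
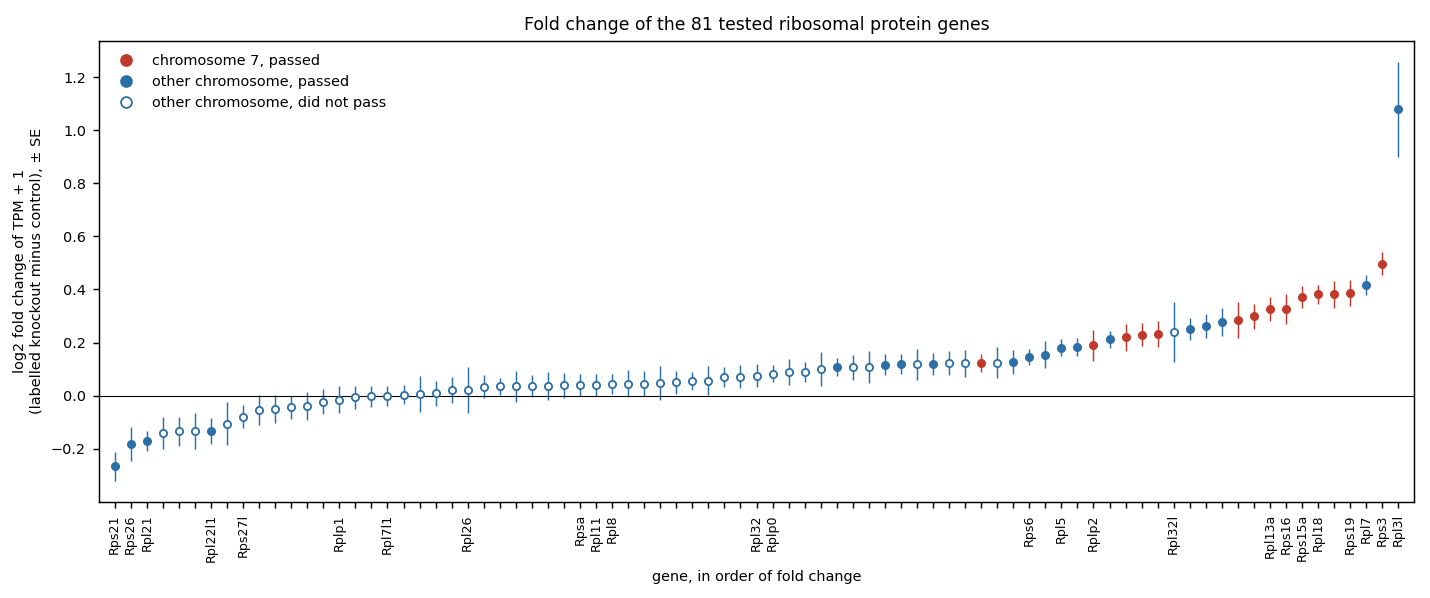
Log2 fold change (labelled knockout minus control, log2(TPM + 1)) of every tested ribosomal protein gene, ordered by value, with lines of 1 standard error; red marks chromosome 7, blue other chromosomes, open points did not pass limma, and a choice of genes is named on the axis. Of the 81 genes, 63 lie above 0, among them all 14 of chromosome 7, and Rpl3l stands apart at 1.08 with the widest error.

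The calls differed by position. All 14 members on chromosome 7 were higher under the knockout label, and in none did the groups overlap, but this chromosome was higher as a whole: 59.2% of its 878 tested genes were called higher and 8.31% lower, and 62.9% did not overlap in the higher direction. No chromosome 7 member was lower in limma, in limma-voom or at an unadjusted p under 0.05. The 14 members had a median log2 fold change of 0.31 (0.12 to 0.50), and the 864 other tested genes of chromosome 7 a median of 0.24, with 9 members above that value and 5 below it. Once the chromosome's median was removed, 5 of the 14 stayed higher, among them Rps3, Rps19, Rpl18 and Rps15a, and 1, Rps9, was lower. On the other chromosomes 15 of 67 members were higher and 4 lower, beside 23.9% and 24.7% of all tested genes there, with a median of 0.05. The higher share off chromosome 7 (22.4%) was near the background and the lower share (6.0%) below it. Of the 898 other genes off chromosome 7 with a mean of at least 100 TPM, 23.2% were higher and 39.5% lower. Their median log2 fold change was -0.06, and they were not matched to the members in abundance. Without the paralogs, the members had a median level of 776 TPM over all libraries. The higher count off chromosome 7 was 26 without control library 1 and 9 without control library 2 or without knockout-labelled library 1 or 2.

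**Figure D3:**
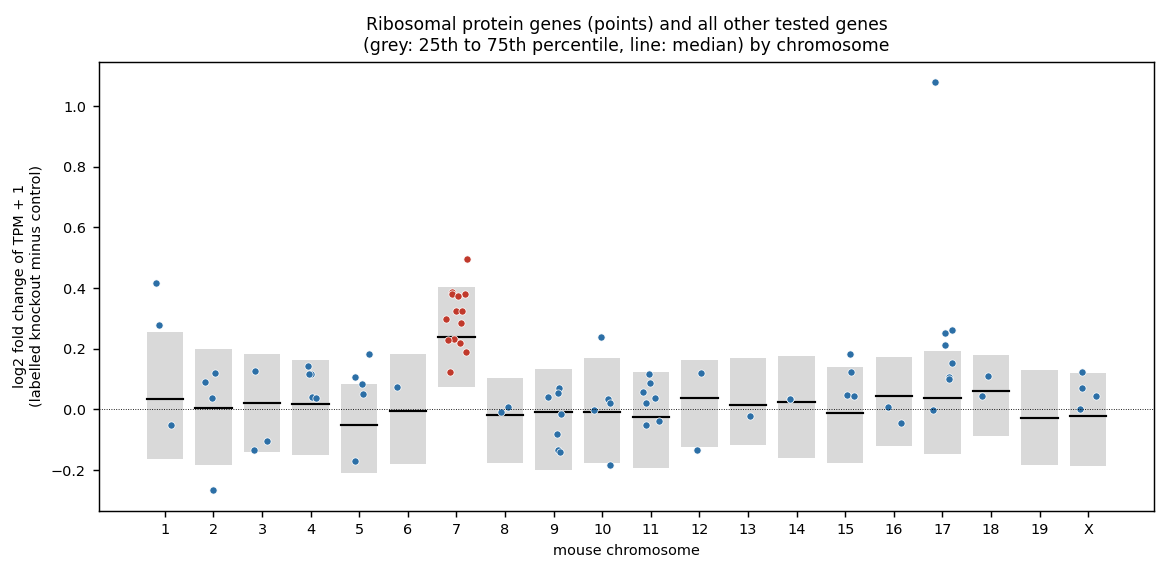
Log2 fold change (labelled knockout minus control) of each ribosomal protein gene by mouse chromosome, as points, over the median (line) and the 25th to 75th percentile (grey) of the other tested genes of that chromosome. Chromosome 7 members spread from 0.12 to 0.50 around a chromosome median of 0.24, while on the remaining chromosomes the medians of other genes lie close to 0.

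Among the small-subunit proteins 12 of 30 were not called, 16 higher (53.3%) and 2 lower (6.7%), beside 26.7% and 23.4% of all tested genes. The lower count was 4 without control library 2, and 1 without control library 3 or without any 1 of the knockout-labelled libraries. The largest change was in Rps3, which sits at the entrance of the messenger RNA channel and also acts in DNA repair (chromosome 7, 99477896 to 99483709, mm10, minus strand). Its level was 1286, 1324 and 1225 TPM under the knockout label, against 942, 888 and 886 TPM in the control libraries. All 3 were above all controls, with means of 1278 ± 50.01 and 905 ± 32.0 TPM (SD, n = 3), a log2 fold change of 0.50 (SE 0.0425) and adjusted p = 1.276e-05. Rps19, whose human counterpart is the gene most often mutated in Diamond-Blackfan anaemia (chromosome 7, 24884592 to 24889811, plus strand), stood at 1162, 1176 and 1093 TPM against 856, 838 and 931 TPM. The groups were apart, with a log2 fold change of 0.39 (SE 0.0484, adjusted p = 0.000143).

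Rps15a, a universal protein of the small subunit, was at 154, 161 and 163 TPM against 128, 118 and 123 TPM, with a log2 fold change of 0.37 (SE 0.0422, adjusted p = 7.54e-05). Rps16, at the decoding site, was at 1029, 1066 and 913 TPM against 795, 779 and 820 TPM (0.33, SE 0.0559, adjusted p = 0.000999). In both the groups were apart, and Rps16 varied more between its knockout-labelled libraries. Rps13 and Rps9, also of the small subunit and on chromosome 7, had ratios of mean TPM of 1.23 and 1.09. With the median of chromosome 7 removed, Rps16 and Rps13 no longer passed (adjusted p = 0.242 and 0.346, limma), while Rps15a did. Rps9, a protein of translational accuracy, had the smallest log2 fold change of the 14 members there, from 1183 ± 21.7 to 1288 ± 26.7 TPM (SD, n = 3; log2 fold change 0.12, adjusted p = 0.0163), which is below the median of its chromosome, and 9 of 16 alternatives kept its call, which was lost without knockout-labelled library 1 or 2.

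Off chromosome 7, 7 of 21 small-subunit members were higher (33.3%) and 2 lower (9.5%), beside 23.9% and 24.7% of all tested genes there. The median log2 fold change of these members was 0.04. Rps10, near the messenger RNA entrance and a target of ribosome quality control (chromosome 17), was at 705, 675 and 735 TPM against 595, 577 and 603 TPM. Its libraries were apart by group (0.25, SE 0.0405, adjusted p = 0.000689). On the same chromosome, Rps18 and Rps2 had log2 fold changes of 0.26 and 0.21 and also did not overlap. The 8 members of chromosome 17 comprised 5 that were higher, with a median of 0.18. Among the 5 was the paralog Rpl3l, at only 3.67 against 1.27 TPM. Of the other tested genes of that chromosome 28.1% were higher and 21.7% lower, with a median of 0.04. Rps6, the substrate of the S6 kinases downstream of TOR (chromosome 4), was at 342, 345 and 345 TPM against 311, 313 and 310 TPM. Its change was small and its libraries unusually tight, with means of 344 ± 1.55 and 311 ± 1.26 TPM (SD, n = 3; log2 fold change 0.14, SE 0.0307, adjusted p = 0.00349). Rpsa, the laminin receptor protein of the small subunit, was at 692 ± 6.12 against 674 ± 35.4 TPM (SD, n = 3) and did not pass (adjusted p = 0.456).

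Of the 43 large-subunit proteins 31 were not called, 11 were higher (25.6%) and 1 lower (2.3%), beside 26.7% and 23.4% of all tested genes. The higher share was thus near the background. Without control library 1 the higher count was 20, and without control library 2 the lower count was 2. The largest change was in Rpl7, a universal protein (chromosome 1, 16101296 to 16104433, minus strand), at 1888, 1941 and 1962 TPM against 1502, 1433 and 1403 TPM. The groups were far apart, at 1930 ± 38.4 against 1446 ± 50.9 TPM (SD, n = 3), a log2 fold change of 0.42 (SE 0.0390, adjusted p = 2.195e-05) that stood well above the median of 0.03 of the other chromosome 1 genes. Rpl31, at the exit of the peptide tunnel and also on chromosome 1, was at 576, 595 and 539 TPM against 502, 460 and 449 TPM (0.28, SE 0.0522, adjusted p = 0.00176). Its groups did not overlap.

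Rpl18 (chromosome 7, 45718071 to 45720835, plus strand) was at 964, 971 and 923 TPM against 751, 718 and 724 TPM, a log2 fold change of 0.38 (SE 0.0369, adjusted p = 2.742e-05). Rpl13a, which leaves the ribosome in interferon-treated monocytic cells to silence inflammatory messenger RNAs, was at 1462, 1517 and 1413 TPM against 1230, 1147 and 1128 TPM (0.33, SE 0.0449, adjusted p = 0.000266). Both were higher in every library labelled knockout. Rpl28 and Rpl27a, the other large-subunit members of chromosome 7, had ratios of 1.17 and 1.16. With the median of chromosome 7 removed, Rpl18 still passed, while Rpl13a, Rpl28 and Rpl27a did not (adjusted p = 0.151, 0.850 and 0.741, limma). Off chromosome 7, 7 of 39 large-subunit members were higher (17.9%) and 1 lower (2.6%), beside 23.9% and 24.7% of all tested genes there. The median of these members was 0.06.

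Rpl5 and Rpl11 bind the 5S RNA together and hold back Mdm2, the ligase of p53, when ribosome assembly fails. Their RNAs differed in result: Rpl5 was at 276, 282 and 270 TPM against 247, 244 and 240 TPM, with no overlap (log2 fold change 0.18, SE 0.0335, adjusted p = 0.00156), while Rpl11 was at 606 ± 25.7 against 589 ± 16.99 TPM (SD, n = 3; adjusted p = 0.437). The difference between the 2 genes was not tested. Rpl26, which binds the p53 messenger RNA, was at 235 ± 12.2 against 233 ± 34.0 TPM (SD, n = 3; adjusted p = 0.845). The abundant Rpl8 and Rpl32 did not pass, at 2169 ± 43.9 and 2043 ± 59.1 TPM under the knockout label (SD, n = 3; adjusted p = 0.380 and 0.172).

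Of the 3 stalk proteins, which call translation factors to the large subunit, 1 was higher and the others were not called. Of all tested genes 26.7% were higher and 23.4% lower. Rplp2, on chromosome 7, was at 1371, 1388 and 1368 TPM against 1191, 1109 and 1327 TPM (log2 fold change 0.19, SE 0.0586, adjusted p = 0.0223). The third control came close to the libraries labelled knockout without reaching them. The call was lost with the median of chromosome 7 removed (adjusted p = 0.497) and without knockout-labelled library 1 or 2 or control library 2, and 9 of 16 alternatives kept it. Rplp0, the stalk base, was at 526 ± 6.26 against 496 ± 8.99 TPM (SD, n = 3) and missed the threshold although its groups did not overlap (adjusted p = 0.0598). Rplp1 was at 2111 ± 39.1 against 2137 ± 143 TPM (SD, n = 3; adjusted p = 0.813).

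**Figure D4:**
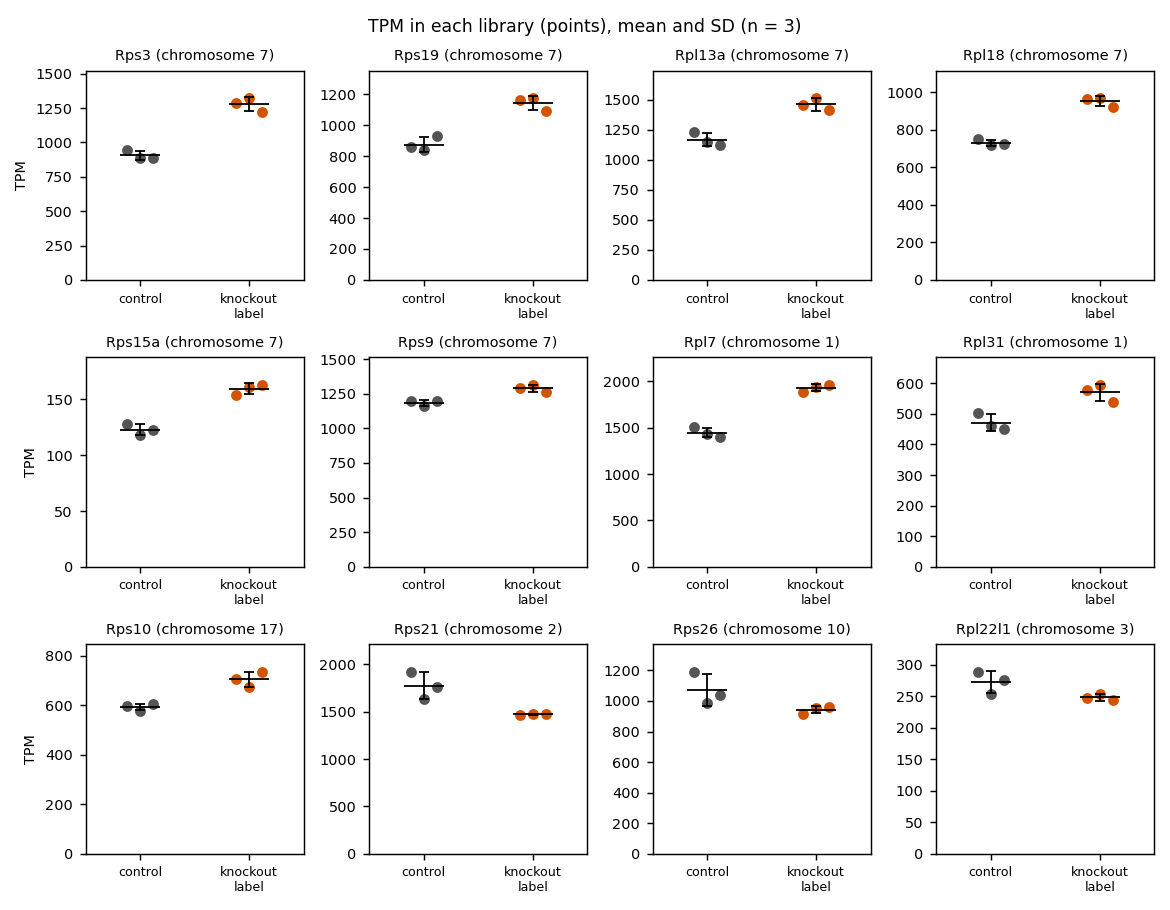
TPM of 12 ribosomal protein genes in each library, one panel per gene with its own axis starting at 0; points are libraries, and lines give the mean and SD of a group (n = 3). Rps3, Rps19, Rpl13a, Rpl18, Rps15a, Rps9, Rpl7, Rpl31 and Rps10 are higher in every library labelled knockout, Rps21 and Rps26 are lower in every one, and Rpl22l1 overlaps.

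Against the trend, 4 members were lower: Rps21, Rps26, Rpl21 and Rpl22l1. Rps21, a small protein of the small subunit (chromosome 2, 180257379 to 180258444, plus strand), was at 1465, 1473 and 1478 TPM under the knockout label, against 1924, 1639 and 1759 TPM in the control libraries. The knockout-labelled libraries lay within a few TPM of each other and below all controls, with a log2 fold change of -0.27 (SE 0.0543, adjusted p = 0.00276). Rps26, at the messenger RNA exit (chromosome 10), was at 915, 954 and 957 TPM against 1192, 988 and 1038 TPM (-0.18, SE 0.0629, adjusted p = 0.0359). In both genes control library 1 was the highest. The call of Rps21 held in all 16 alternatives and that of Rps26 in 9 of 16, being lost without control library 3 or without any 1 knockout-labelled library, and Rps26 had an adjusted p of 0.101 in the authors' deposited table. Rpl21, of the large subunit (chromosome 5), was at 164, 174 and 164 TPM against 194, 184 and 188 TPM (-0.17, SE 0.0392, adjusted p = 0.00523). Its groups were apart, but 57 other annotated genes hold a near copy of its coding sequence (at least 95% identity over at least 80%), the most of any member, and the sources used here do not say how reads that fit several copies were assigned. Rps29 and Rps25 were also below every control without passing in limma (adjusted p = 0.0657 and 0.0744). Rps29 had an adjusted p of 0.0233 in the authors' deposited table.

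Near copies are a general feature of these genes, since 72 of the 76 members outside the paralogs had at least 1, with a median of 5.5. Rps3 and Rpl8 were among those that had none. None was found for Rps19 either, but the coding sequence searched (639 bases) was longer than its listed transcript (407 bases). Near copies of a shorter form could thus have been missed, and the same sequence entered the correlations below. A further overlap lies in the table itself: 4 members share their position and strand with another listed row whose recovered reads differed from theirs by 0.156% to 2.14% in every library, so the 2 rows of a pair are not separate measurements. These were Rps27 with Rps27rt, Rpl34 with Rpl34-ps1, Rpl30 with Gm12191 and Rpl26 with Gm15772. In control library 1, for example, Rps27 had 7568 and Rps27rt 7591 reads. Across the 76 members, the log2 fold change had a Pearson correlation of 0.28 (Spearman 0.32) with the length of the coding sequence, -0.26 (-0.17) with the number of near copies, 0.10 (0.10) with mean TPM and 0.0 (0.0) with GC content of the coding sequence. Over the 62 of them off chromosome 7 these values were 0.37 (0.37) for coding length, -0.13 (0.08) for near copies, -0.03 (-0.09) for mean TPM and -0.15 (-0.16) for GC content, so the signs for mean TPM, and for near copies by Spearman, changed. Genes are not independent replicates, since all were measured in the same 6 libraries, and these values are descriptions.

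Over all tested genes 26.7% were higher and 23.4% lower. The universal proteins, which bacteria and archaea share with eukaryotes, gave 15 of 33 higher and 0 lower in limma, with a median log2 fold change of 0.11. At an unadjusted p under 0.05, and in limma-voom on recovered reads, 1 of them was lower, Rps29. The remaining 43 core members gave 13 higher and 3 lower, with a median of 0.06. By start site, 15 of the 33 tested members with a TOP run were higher and 3 lower (median 0.12), and 7 of the 28 without one were higher and 0 lower in limma (median 0.05), with 1, Rps25, lower at an unadjusted p under 0.05 and in limma-voom. Off chromosome 7 these medians were 0.05 in both classes, with 8 of 26 higher and 3 lower among genes with a run, and 3 of 24 higher and 0 lower among those without. Of all tested genes off chromosome 7, 23.9% were higher and 24.7% lower. The class with a run includes genes whose run lies wholly before the annotated start. Among genes without a run, the higher share over all chromosomes (7 of 28) was near that of all tested genes (26.7%). Off chromosome 7 (3 of 24) it was below the 23.9% there. The difference between the classes was not tested.

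Patterns for the D-box, the motif that E4BP4 binds, were searched on both strands in the promoter windows from 250 bases before to 50 after the start. In them N stands for any base, so a match need not be a preferred E4BP4 sequence. TTANGTAA was in 2 of 63 members (3.2%) and in 2.1% of all promoters, and the looser TTANNTAA, which contains it, in 4 (6.3%) and 5.3%. Of these 2 members Rpl39l was listed at 0, and in Rps26 the match begins 121 bases before the start. It is shown with the motif in capitals because Rps26 is among the 4 members that were lower.
Rps26: actctaagtaaTTAGGTAAattcgagcata
Of other motifs known from such promoters, the ETS family sequence CCGGAAG was in 23 members (36.5%) and 11.9% of all promoters, the YY1 sequence ATGGCGG in 10 (15.9%) and 5.3%, and the SP1 sequence GGGCGG in 38 (60.3%) and 46.1%. A match is a string of letters and not a bound site.

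Of the 8 paralogs, 5 were tested, with 1 higher and 1 lower, beside 26.7% and 23.4% of all tested genes. Rpl10l and Rpl39l, known from testis, were listed at 0 in all 6 libraries, and Rps4l at 0.068, 0.14 and 0 TPM in the controls and at 0 otherwise. Rpl3l, the Rpl3 paralog of striated muscle (chromosome 17, 24732685 to 24736149, plus strand), was at 3.78, 3.29 and 3.93 TPM against 0.987, 0.769 and 2.05 TPM. It was higher in every library labelled knockout, with a log2 fold change of 1.08 (SE 0.179, adjusted p = 0.000834), on means of 61.0 and 18.7 reads. Its fold depends on how low values are treated, from 0.28 on the authors' stabilised values to 1.64 in limma-voom on recovered reads, and Rpl3 itself, at 741 ± 9.39 against 652 ± 7.22 TPM (SD, n = 3), had a ratio of 1.14. The coding sequences of Rpl3 and Rpl3l are 43.4% identical over the 1227 positions of a global alignment, gaps included. They are 1212 and 723 bases long, so unpaired bases lower this value.

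Rpl22l1, which takes the place of Rpl22 and influences splicing, was at 248, 254 and 243 TPM against 289, 253 and 276 TPM. The groups overlapped by 1 library and the call was marginal (log2 fold change -0.13, SE 0.0486, adjusted p = 0.0452). It held in 6 of 16 alternatives, and was lost without any 1 knockout-labelled library or without control library 1 or 3. Rpl22, 66.9% identical over the coding sequence, was at 213 ± 12.9 against 196 ± 13.8 TPM (SD, n = 3) and did not pass (adjusted p = 0.122). Rps27l, a p53 target, was at 409 ± 18.9 against 432 ± 13.0 TPM (SD, n = 3; adjusted p = 0.149), and Rpl7l1, a factor of large-subunit assembly, at 90.5 ± 2.36 against 90.6 ± 1.33 TPM (SD, n = 3; adjusted p = 0.976). Rpl7l1 lies on chromosome 17 and Rpl7 on chromosome 1, and their coding sequences are 53.0% identical. Rpl32l stood at 1.78 ± 0.278 against 1.35 ± 0.213 TPM (SD, n = 3; adjusted p = 0.109).

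Cytosolic ribosomal proteins that the naming rule does not take were 6 further rows, of which 2 were higher in limma. Of all tested genes 26.7% were higher, and the median log2 fold change of the 6 rows was -0.06. Rack1, the signalling scaffold on the small subunit, was at 1615 ± 13.5 against 1506 ± 18.7 TPM (SD, n = 3; log2 fold change 0.10, adjusted p = 0.0295), and Rps3a1 at 1208 ± 36.0 against 1107 ± 4.70 TPM (SD, n = 3; 0.13, adjusted p = 0.0154). Neither call held without knockout-labelled library 1 or 2, and that of Rack1 was also lost without knockout-labelled library 3, without control library 2 or 3, and in limma-voom. Fau, Rpl36al and Rps27rt had log2 fold changes of -0.05, -0.07 and -0.10 without passing.

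Genes that build and regulate ribosomes were read from lists written with earlier results of these data known. Of 69 ribosome biogenesis factors, 29 were higher and 6 lower, with a median log2 fold change of 0.09, beside 26.7% and 23.4% of all tested genes. The smallest adjusted p were those of Mphosph10 and Nop14, of the small-subunit processome, and Gtpbp4, a GTPase of large-subunit assembly, with log2 fold changes of 0.55, 0.48 and 0.38. Of the 13 tested chaperones and importers of ribosomal proteins, 7 were higher and 1 lower (median 0.14), with the importins Ipo7 and Ipo5 at 0.61 and 0.45 and Pdcd2l at 0.55. Ipo7, Pdcd2l and Mphosph10 lie on chromosome 7, which was higher as a whole, and so do further higher genes of both lists. RNA polymerase I and its factors went both ways, with 3 of 15 higher and 4 lower (median -0.01). Ubtf, the factor that marks active ribosomal DNA, was lower, at 38.1 ± 0.404 against 46.7 ± 1.77 TPM (SD, n = 3; -0.29, adjusted p = 0.000342), while the subunits Twistnb and Polr1c were higher, with 0.32 and 0.28. The RNA polymerase I count of lower genes was 2 without control library 3, and the lower count of biogenesis factors 3 without knockout-labelled library 2.

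The list of other RNAs known to carry a TOP run, mostly translation factors, gave 7 of 14 higher and 1 lower, with a median of 0.13, beside 26.7% and 23.4% of all tested genes. Eef2, the translocase of elongation, was at 1041 ± 27.1 against 829 ± 46.8 TPM (SD, n = 3; log2 fold change 0.33), Eif3f, on chromosome 7, had 0.47 and Eef1b2 0.23. The lower gene, here and among the chaperones, was Nap1l1, a histone chaperone (-0.10, adjusted p = 0.0301), and it no longer passed without knockout-labelled library 1 or 3 or without control library 2 or 3. Of 29 tested genes of the TOR pathway and of TOP regulation, 14 were higher and 1 lower (median 0.15), against the same 26.7% and 23.4%. The 3 smallest adjusted p were those of Sesn2, Eif4ebp1 and Ddit4. Sesn2, an inhibitor of TOR complex 1, rose from 12.9 ± 1.05 to 39.4 ± 1.19 TPM (log2 fold change 1.54). Eif4ebp1, a repressor of cap-dependent translation that TOR inactivates, rose from 99.5 ± 4.37 to 226 ± 10.2 TPM (1.18). Ddit4, another inhibitor of TOR complex 1, rose from 33.7 ± 1.65 to 64.8 ± 1.13 TPM (0.92; SD, n = 3 each for these 3 genes). Sesn1 was the lower one, at 8.50 ± 0.345 against 18.7 ± 0.753 TPM (SD, n = 3; -1.05, adjusted p = 4.911e-07). These are RNA levels, and TOR activity and translation were not measured.

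**Figure D5:**
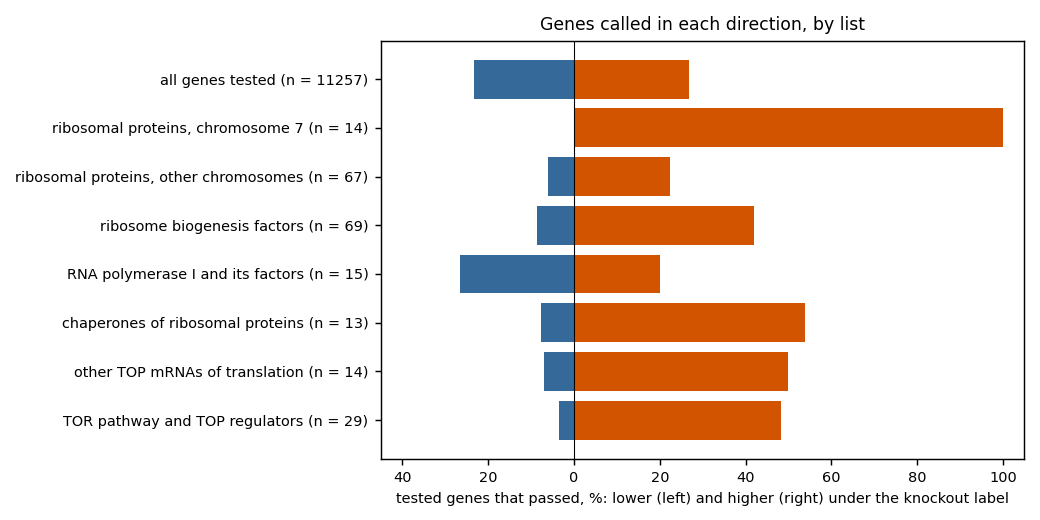
Percent of tested genes called higher (orange, right) and lower (blue, left) under the knockout label, for all tested genes, the ribosomal protein genes on and off chromosome 7, and each related list with its number of tested genes. Lower calls reach 23.4% of all tested genes and 26.7% of the RNA polymerase I list, but at most 8.7% of each other list drawn.

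In the authors' deposited table, 26 of 81 members were higher and 4 lower at an adjusted p under 0.05. The 4 were Rps21, Rpl21, Rpl22l1 and Rps29, so Rps29 stood in the place of Rps26. Of all 18983 symbols with a fold change there, 14.2% were higher and 14.2% lower. No filter on low TPM was set here, so these shares are not comparable with those of the limma fit above. The 81 members also differ from those tested above, since Rps4l is among them and Rpl32l is not. The median of their log2 fold changes over the members was 0.06. Nfil3 had a log2 fold change of 1.76 in the authors' deposited table.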

How the data were processed

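RNA-seq of 6 RAW264.7 libraries was used, 3 labelled E4BP4 knockout and 3 control. Per the submitters' processing notes the mm10 build, HOMER 4.11.1, STAR 2.7.5a, bcl2fastq and DESeq2 were used, in roles that are not stated. The authors deposited TPM values with a RefSeq transcript, its length and mm10 coordinates per symbol. A second table deposited by the authors holds variance-stabilised log2 values, a log2 fold change, p-values and adjusted p-values. Its WT vs. TG header was read as knockout against control.

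TPM values were kept at 1 or more in at least 3 of 6 libraries, and log2(TPM + 1) was compared with limma 3.58.1 (R 4.3.3; mean-variance trend, two-sided, Benjamini-Hochberg over all genes tested, adjusted p under 0.05). Log2 fold changes are knockout label minus control and understate low genes. Ratios are of mean TPM. TPM times length gave whole reads (100% of values checked within 0.1), 15615639 to 19867732 per library, which set the depth and a limma-voom fit. The limma script was tested on simulated data. The block, scaling, filter, pseudocount, chromosome and left-out-library alternatives are in the closing section.

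The members and lists were chosen with earlier results of these data known. Named members were the 8 highest and 8 lowest called fold changes (4 were lower) among members reaching a mean of 5 TPM in either group, the 3 most abundant, the stalk proteins, Rpsa, the paralogs, Rps6, Rpl5, Rpl11, Rps19 and Rpl26, and in each other list the 3 smallest adjusted p. Other genes named were chosen after their values were seen. Several genes, also of this rule, are not reported here. Near copies came from BLAST 2.17.0 on GENCODE M21 coding sequences, and paralog pairs were aligned as coding nucleotides with Biopython 1.88.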

Additional observations from a re-analysis of the deposited data

How the results depend on the processing

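Of 33 called members, 16 kept direction and call in each of the 16 alternatives that tested them, 5 of 14 on chromosome 7 and 11 of 19 elsewhere. With each chromosome's median removed, 17 members were higher, 5 higher and 1 lower on chromosome 7, 9 higher and 4 lower in the small subunit, 6 higher in the large subunit, and 3 TOR genes lower. There Rplp2, Rpl27a, Rpl28 and Rps9 turned to -0.051, -0.023, -0.012 and -0.119. No low filter, upper-quartile scaling and median-of-ratios scaling each gave 2 members lower, all off chromosome 7, 9 higher off chromosome 7, and 1 small-subunit member lower. Without the filter 2 RNA polymerase I genes were lower. Limma-voom gave 7 members lower, all off chromosome 7, with 4 in the small and 2 in the large subunit. At 5 TPM, and on the stabilised values, 4 small-subunit members were lower. The share difference was 0.301 in reads. Unless a value above shows it, the cause was not tested.

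Leaving out 1 library at a time gave 21 to 40 members higher and 2 to 7 lower. The count over all genes changed as well, for example from 3002 higher to 2478 without knockout-labelled library 1. On chromosome 7, 12 to 14 were higher, and elsewhere 9 to 26 higher and 2 to 7 lower. The small subunit had 12 to 17 higher and 1 to 4 lower, and the large subunit 8 to 20 higher and 1 to 2 lower. Lower counts ran from 3 to 6 for biogenesis factors, 2 to 4 for RNA polymerase I, and 0 to 1 for chaperones and for other TOP RNAs. The median log2 fold change of the members ran from 0.04 to 0.11. Deviations of same-numbered libraries 1, 2 and 3 correlated at -0.0133, -0.0578 and 0.00302 over all genes and at -0.373, 0.379 and 0.214 over the members, so neither showed pairing in all 3. The replicate block gave 23 members higher and 3 lower, 2794 genes higher and 2503 lower, and 0 lower among chaperones and other TOP RNAs. Depth limits Rpl3l, with 12 to 66 reads, and Rpl32l, with 10 to 20.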
